A study of Rattus norvegicus with 27 samples.

Results

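MicroRNAs (miRNAs) in small extracellular vesicles (EVs) released by dedifferentiated rat Schwann cells were compared with those in EVs of undifferentiated cells. The libraries were chosen by the stage named for each column of the miRNA count table, 3 dedifferentiated against 3 undifferentiated, which is 6 of the 9 EV miRNA libraries and 6 of the 27 libraries of the series. The table held 965 entries, of which 481 were mature miRNAs and 484 were hairpins, the longer precursors from which mature strands are cut. Mature and hairpin entries entered the same fit and are described apart.

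The cells were primary rat Schwann cells from a commercial supplier, used at passages 3 to 5, with no strain or age in the labels and no genetic change in any group. Undifferentiated cells were kept without dibutyryl cyclic AMP (dbcAMP), a cell-permeable cyclic AMP analogue, and the labels do not state their final medium further. Dedifferentiated cells received 1 mM dbcAMP with 1% exosome-depleted serum for 72 h. They then spent 72 h without dbcAMP in complete medium with 10% exosome-depleted serum, forskolin and 10 ng/mL neuregulin, so stage and medium cannot be told apart. Differentiated cells, shown here only beside the others, had the dbcAMP step alone. Each small RNA library was made from about 5 ng of total RNA of EVs from the culture supernatant. The labels call the libraries biological replicates without saying whether they came from separate animals or cultures, so p-values measure the spread between these libraries.

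A miRNA is a short RNA that guides the Argonaute protein to messenger RNAs, mainly through bases 2 to 8 from its 5′ end, called the seed. The 2 strands of a hairpin give the 5p and the 3p arm, of which one usually accumulates. Schwann cells make myelin around axons, and after nerve injury they give up the myelin programme for a repair state, a step in which miRNAs and the EVs that carry them have been studied. EV libraries count what was released into the medium, which need not follow the level in the cell.

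Mature sequences of the miRNAs that the results turn on are printed 5′ to 3′ from RefSeq (assembly GRCr8), with the seed in capitals. RefSeq held 434 of the 481 mature entries and 14 of the 16 mature entries called below. First come the members of the miR-30 seed group, of which miR-30a-5p and miR-30c-5p were called higher.
miR-30a-5p: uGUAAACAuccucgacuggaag
miR-30c-5p: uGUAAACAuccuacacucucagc
miR-30e-5p: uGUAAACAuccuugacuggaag
The opposite arm of miR-30a has another seed.
miR-30a-3p: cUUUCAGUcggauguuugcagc
Both arms of miR-338 are shown because their ratio differed between the stages.
miR-338-3p: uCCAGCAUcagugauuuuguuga
miR-338-5p: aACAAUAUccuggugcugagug
The next 3 share the seed of miR-1, a miRNA best known from muscle.
miR-1b: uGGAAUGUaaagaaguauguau
miR-1-3p: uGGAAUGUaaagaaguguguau
miR-206-3p: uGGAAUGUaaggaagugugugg
Of the following pair, each is complementary to the other over at least 16 bases, so their counts may not be independent.
miR-203a-3p: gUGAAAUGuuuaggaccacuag
miR-203b-5p: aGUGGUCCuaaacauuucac
The other printed miRNAs that were called higher differ in seed from each other and from those above.
miR-146b-5p: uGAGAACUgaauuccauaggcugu
miR-122-5p: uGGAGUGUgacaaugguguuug
miR-92b-5p: aGGGACGGgacgcggugcaguguu
Those called lower that are printed here also differ in seed.
miR-503-3p: gGAGUAUUguuuccgcugccugg
miR-351-5p: uCCCUGAGgagcccuuugagccuga
miR-125b-1-3p: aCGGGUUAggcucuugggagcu
miR-128-3p: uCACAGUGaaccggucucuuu
The last 3 are a miRNA whose hairpin entry fell and a pair that shares a seed and lies in 1 cluster.
miR-21-5p: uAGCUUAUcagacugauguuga
miR-221-3p: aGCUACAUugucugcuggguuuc
miR-222-3p: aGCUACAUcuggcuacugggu

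Between the stages, 27 of 361 tested entries were called (7.48%) at an adjusted p under 0.05 in edgeR's quasi-likelihood test, 16 higher (4.43%) and 11 lower (3.05%) in dedifferentiated EVs. Mature entries gave 16 calls among 177 tested (9.04%), 11 higher (6.21%) and 5 lower (2.82%), and hairpins gave 11 among 184 (5.98%), 5 higher (2.72%) and 6 lower (3.26%). Several entries read the same place in the genome, and the 27 calls came from 18 loci, 10 with higher and 8 with lower entries. The mature miRNAs that rose were miR-338-3p, miR-92b-5p, miR-1b, miR-203a-3p, miR-203b-5p, both arms of miR-30a, miR-30c-5p, miR-122-5p, miR-146b-5p and miR-320-3p. Those that fell were miR-503-3p, miR-351-5p, miR-125b-1-3p, miR-151-3p and miR-128-3p. All 27 called entries had libraries that did not overlap between the stages, which held for 31.9% of all tested entries, 33.9% of the mature and 29.9% of the hairpin ones. In EVs, fewer vesicles of a kind cannot be told apart from less of a miRNA per vesicle, nor can fewer releasing cells.

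**Figure D1:**
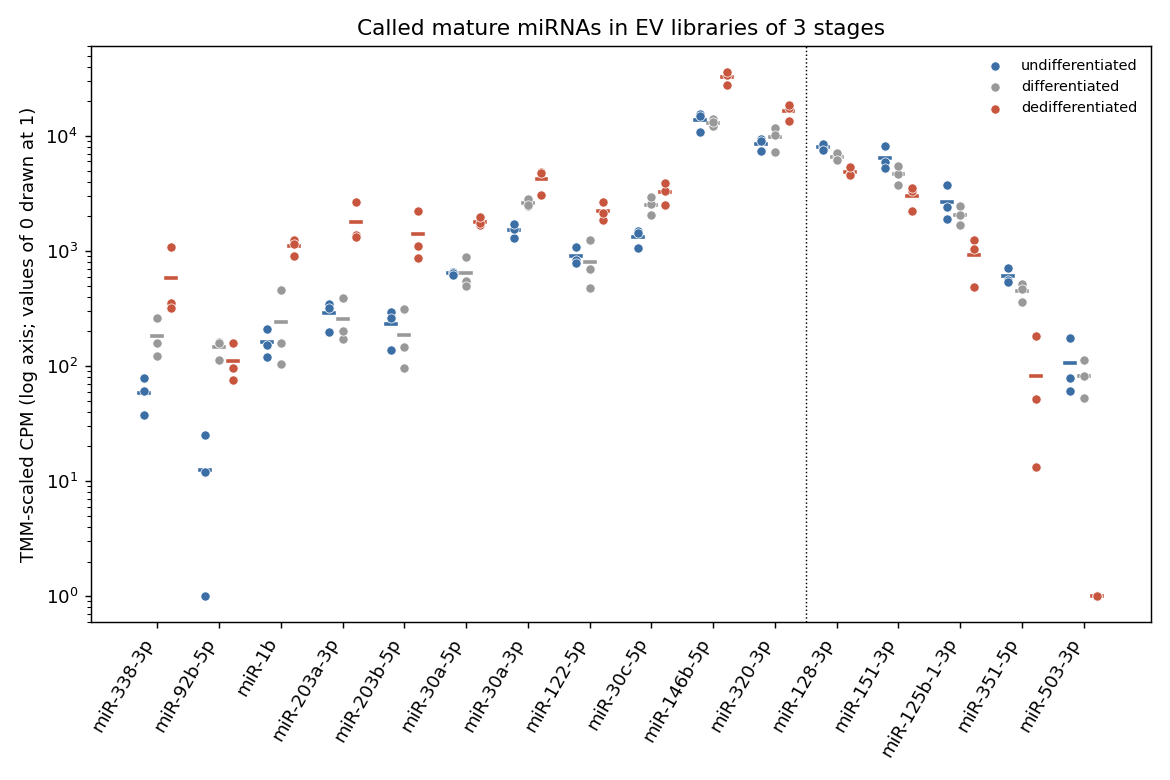
Each point is 1 EV library and each bar a stage mean, on a log axis of CPM (share of the scaled library total), for the 16 called mature miRNAs; the dotted line parts the 11 higher from the 5 lower in dedifferentiated EVs. For all 16 the dedifferentiated points lie wholly above or wholly below the undifferentiated ones, and miR-503-3p is at 0 in every dedifferentiated library.

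EV miRNA libraries of the 2 stages held 81807 to 407937 counts, and replicate 1 was the shallowest of both. Levels are given as CPM, the share of the TMM-scaled library total that an entry holds, in the order of replicates 1 to 3. A floor of 3 counts stood for 8.42 to 27.9 CPM, and values near it are uncertain by counting error alone. Calls rested on few libraries. Without undifferentiated replicate 2 or replicate 3, 1 entry was called, the hairpin mir-21, and the other 26 then had edgeR adjusted p-values of 0.0892 to 0.285 without replicate 2 and 0.051 to 0.285 without replicate 3. Without dedifferentiated replicate 1, 2 or 3, 10, 20 and 14 entries were called, and without undifferentiated replicate 1, 23. No called entry changed sign in any of these fits or other alternatives. The balance of directions moved with the scaling and the entries kept. DESeq2's size factors gave 13 higher of 30 calls, DESeq2's Wald test 29 of 60, mature entries alone 9 of 23, at least 10 counts in every library 11 of 30, and leaving out the 10 most abundant entries 11 of 28. Over all tested entries the median log2 change was 0.22, with 209 of 361 above 0, and with mature entries alone the log2 changes shifted by -0.31 and the median became -0.10.

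**Figure D2:**
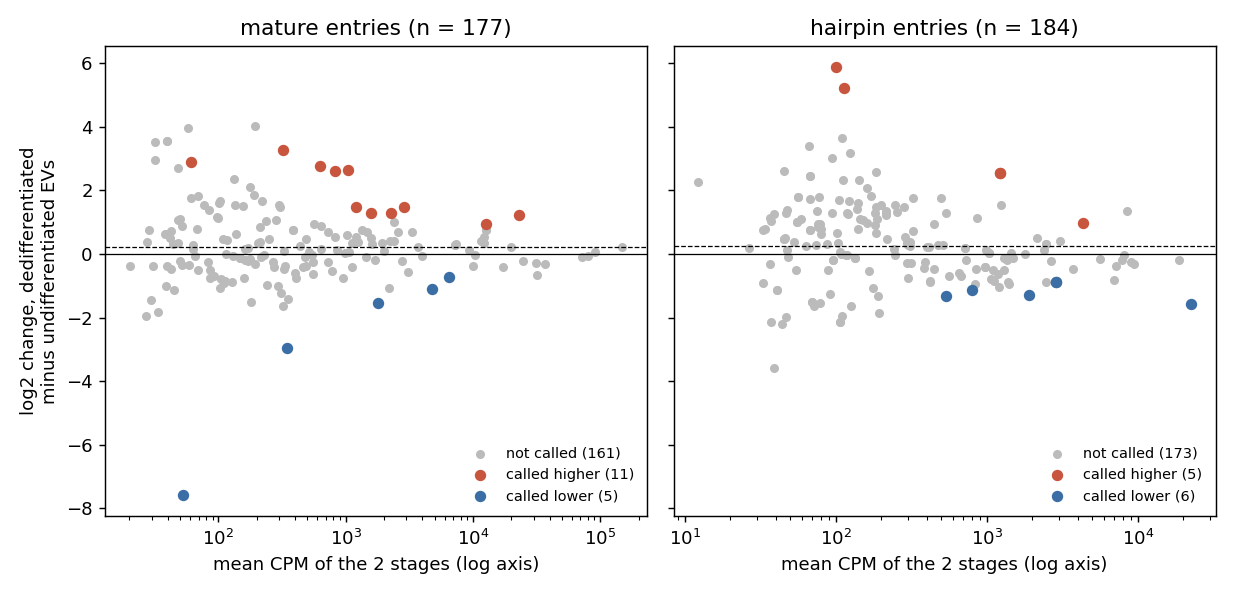
Each point is a tested entry, placed by its mean CPM over the 2 stages (log axis) and its log2 change from undifferentiated to dedifferentiated EVs; dashed lines mark the medians of 0.22 for mature and 0.25 for hairpin entries. Called entries lie across the range of levels, and the position of miR-503-3p at the bottom left depends on the prior count, since it had no counts in 1 stage.

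The miR-30 family, best known for opposing the epithelial-to-mesenchymal transition, had the most called mature entries among the families listed. Of its 11 arms listed, 7 were tested, 3 rose, none fell and 4 were not called. Over all tested mature entries, 6.21% were called higher. The median log2 change was 1.28, against 0.22 over all tested entries. miR-30a-3p measured 1304, 1554 and 1712 CPM in undifferentiated and 3090.2, 4859.5 and 4777 CPM in dedifferentiated EVs. All 3 dedifferentiated libraries lay above the undifferentiated ones (log2 change 1.48, SE 0.25, edgeR adjusted p = 0.00854). Differentiated EVs lay between, at 2469.7 to 2853 CPM. miR-30a-5p, the arm with the family seed, rose from 661, 638 and 618 to 1670.4, 1735 and 1977 CPM, with tight groups that did not overlap (log2 change 1.49, SE 0.29, edgeR adjusted p = 0.0119). In differentiated EVs it stood at 496 to 885 CPM, a range that overlaps the undifferentiated one.

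miR-30c-5p measured 1052, 1503 and 1420.5 CPM before and 2531, 3295 and 3882 CPM after, and again no library overlapped (log2 change 1.28, SE 0.26, edgeR adjusted p = 0.0125). Its differentiated libraries spanned 2072 to 2952 CPM. The family was not uniform. miR-30d-5p, another family member, measured 1248, 952 and 1075 and then 1353, 1516 and 1344 CPM (log2 change 0.37, SE 0.25, edgeR adjusted p = 0.401). miR-30e-3p had a log2 change of -0.09 with overlapping libraries. miR-30c-2-3p (1.65, edgeR adjusted p = 0.279) and miR-30e-5p (1.16, edgeR adjusted p = 0.336) were not called, and miR-30b-5p was too rare to test. The hairpin mir-30a rose as both its arms did, from 2281, 3044 and 3394 to 4493, 7024 and 5580.3 CPM (log2 change 0.97, SE 0.26, edgeR adjusted p = 0.0489). In fits that each left out 1 of the 6 libraries, miR-30a-3p was called in 4 of 6, miR-30a-5p and miR-30c-5p in 2, and the hairpin in 0. Both arms are in capitals in the RefSeq hairpin, with the 5p arm first.
mir-30a: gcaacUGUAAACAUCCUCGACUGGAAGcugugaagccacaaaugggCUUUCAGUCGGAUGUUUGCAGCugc

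Among miRNAs described in myelinating glia, 5 of 11 in the table were tested. Over all tested mature entries, 6.21% were called higher, and of these 5 miR-338-3p was. This miRNA promotes oligodendrocyte maturation and is carried in an intron of Aatk, a kinase gene. It measured 37.2, 60.5 and 78.6 CPM in undifferentiated and 350.8, 1078 and 319 CPM in dedifferentiated EVs. Replicate 2 was the highest dedifferentiated library, and the other 2 also lay above every undifferentiated one (log2 change 3.26, SE 0.61, edgeR adjusted p = 0.0119). Without replicate 2 the log2 change was 2.32 (edgeR adjusted p = 0.0393, and from 1.36e-05 to 0.0892 over all alternatives). Differentiated EVs fell between the stages, at 122 to 264 CPM. The opposite arm miR-338-5p had more counts, at 1732, 1995 and 2122 and 2305, 3028 and 4149 CPM, and was not called (log2 change 0.70, SE 0.27, edgeR adjusted p = 0.14). The log2 ratio of the 5p to the 3p arm fell from 5.50, 5.02 and 4.74 to 2.71, 1.49 and 3.70, without overlap. The hairpin mir-338, at 261, 475 and 373 and 234, 372 and 689.8 CPM, overlapped between stages and was not called (log2 change 0.22, SE 0.45, edgeR adjusted p = 0.791). The other 4 tested members, including miR-23a-3p and miR-29a-3p, had log2 changes of 0.03 to 0.76.

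Cell mRNA libraries of the same stages gave a second readout for genes that hold a called miRNA. RefSeq placed 7 such genes on the strand of their miRNA, of which 5 were tested and 1 was called, beside 29.4% of all 10372 genes tested. Aatk measured 1162, 968 and 968 CPM in undifferentiated and 2809.5, 2516 and 2476 CPM in dedifferentiated cells, far apart relative to the spread (log2 change 1.33, SE 0.11, edgeR adjusted p = 1.25e-05). In differentiated cells Aatk was higher still, at 3172 to 3721 CPM, whereas miR-338-3p was highest in dedifferentiated EVs. The host Nsrp1 of mir-423 (log2 change -0.37, edgeR adjusted p = 0.0556), R3hdm1 of miR-128 (-0.34, edgeR adjusted p = 0.0638) and the non-coding gene Lnc215 around mir-125b-1 (-1.04, edgeR adjusted p = 0.0697) had log2 changes below 0 and were not called. Arpp21, the second host of miR-128, was at 0.34 to 1.18 CPM. For 6 more genes around a called miRNA the RefSeq tables gave no strand for the comparison, and 2 of them were tested. Ptk2, around mir-151, fell from 169, 186 and 188 to 132, 144 and 139 CPM without overlap (log2 change -0.39, SE 0.07, edgeR adjusted p = 0.00258), and Nfyc, around mir-30c-1, was not called (log2 change -0.11, edgeR adjusted p = 0.478).

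Of the miRNAs tied to inflammatory signalling, 4 were tested and miR-146b-5p was called higher, beside 6.21% of all tested mature entries. miR-146b-5p dampens signalling from Toll-like and interleukin-1 receptors. At 10782, 15606 and 15019 CPM in undifferentiated and 27954, 33539 and 35870 CPM in dedifferentiated EVs it was among the 10 most abundant mature miRNAs and the single one of those called (log2 change 1.23, SE 0.24, edgeR adjusted p = 0.0119). Each dedifferentiated library exceeded each undifferentiated one, and differentiated EVs, at 12129 to 13913 CPM, lay within the undifferentiated range. The call held in 2 of 6 fits without a library. miR-146a-5p, with the same seed, was rare and overlapped between stages (log2 change 0.18, SE 0.68, edgeR adjusted p = 0.894). miR-155-5p, which promotes inflammatory responses, had a log2 change of 1.40 (edgeR adjusted p = 0.26).

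miR-21, which is induced by injury and inflammation in many tissues, gave the most stable call, through its hairpin entry. The hairpin mir-21 measured 30884, 34220 and 35844 CPM in undifferentiated and 10615, 12234 and 11022 CPM in dedifferentiated EVs. Both groups were narrow and far apart (log2 change -1.58, SE 0.23, edgeR adjusted p = 0.00704). It was called in 6 of 6 fits without a library and in each of the 11 other alternatives in which it was tested, with log2 changes of -1.86 to -1.57. Differentiated EVs, at 11721 to 17041 CPM, also lay below all undifferentiated libraries. The mature miR-21-5p measured 38500, 36095 and 42023 and then 24471, 21248 and 28715 CPM, also without overlap, but was not called (log2 change -0.65, SE 0.22, edgeR adjusted p = 0.107). The mature entry was called lower with mature entries alone, with DESeq2's size factors and in 3 other alternatives, at log2 changes of -0.95 to -0.65 over all of them. The RefSeq hairpin, with the 5p arm in capitals, shows where the mature sequence lies, not where the reads fell.
mir-21: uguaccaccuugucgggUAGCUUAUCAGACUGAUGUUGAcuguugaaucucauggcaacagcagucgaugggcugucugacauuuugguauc

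The X-linked cluster of miR-322, miR-503 and miR-351, whose miR-503 and miR-322 restrain the cell cycle and are known from differentiating muscle, held 2 of the 5 mature miRNAs that fell. Of 12 members listed, 6 were tested, 2 fell, none rose, and the median log2 change was -0.95, also with miR-503-3p at its bound. Over all tested mature entries, 2.82% were called lower, and the median over all tested entries was 0.22. miR-503-3p had 19, 20 and 28 counts in undifferentiated EVs, or 177, 60.5 and 78.6 CPM, and 0 counts in every dedifferentiated library. With the floor of 3 counts taken over the dedifferentiated group, it was at least 15.2-fold lower (edgeR adjusted p = 0.0119). Differentiated EVs still held 52.5 to 112 CPM. Its opposite arm miR-503-5p was too rare to test, with means of 41.4 and 43 CPM. miR-351-5p, whose seed is that of miR-125, fell from 559, 710.5 and 542 to 184, 13.1 and 51.5 CPM, all below the undifferentiated libraries and far apart among themselves (log2 change -2.95, SE 0.69, edgeR adjusted p = 0.0263). Without dedifferentiated replicate 1 its log2 change was -4.34. miR-450a-5p (-1.02, edgeR adjusted p = 0.302) and miR-450b-5p (-0.88, edgeR adjusted p = 0.419) were not called. The 1 tested member with a log2 change above 0 was miR-450b-3p (0.37), also not called, and miR-322-5p was not tested. Fits that left out 1 of the 6 libraries called miR-503-3p in 4 cases and miR-351-5p in 3.

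Other miRNAs that fell came from loci in which arm and hairpin moved together. miR-125b-1-3p, an arm of a miRNA that is abundant in neural cells, measured 1890.1, 3758 and 2417 CPM and then 484, 1253 and 1035 CPM (log2 change -1.54, SE 0.37, edgeR adjusted p = 0.0324). Its hairpin mir-125b-1 fell from 866, 819 and 612 to 317, 315 and 293 CPM (log2 change -1.31, SE 0.35, edgeR adjusted p = 0.0489). The other arm, miR-125b-5p, which a second hairpin also gives, was not called (log2 change 0.27, edgeR adjusted p = 0.48). Within the miR-99/100, miR-125 and miR-10 list, 1 of 12 tested members fell and none rose, with a median of -0.34. Over all tested mature entries, 2.82% were called lower. miR-151-3p, encoded in an intron of the focal adhesion kinase gene Ptk2, dropped from 5922, 8157 and 5314 to 2238, 3299.5 and 3511 CPM without overlap (log2 change -1.10, SE 0.27, edgeR adjusted p = 0.033). The hairpins mir-151 (log2 change -0.89, SE 0.24, edgeR adjusted p = 0.0489) and mir-3586 (log2 change -0.89, SE 0.24, edgeR adjusted p = 0.0489) cover the same locus on opposite strands and had almost equal counts, so they are 1 result.

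miR-128-3p, a miRNA enriched in neurons, showed the smallest called change. It measured 8054, 8483 and 7532 CPM and then 4677, 4570.3 and 5379.5 CPM, 2 narrow groups with a gap between them (log2 change -0.72, SE 0.20, edgeR adjusted p = 0.0489). Its call held in 1 of 6 fits without a library. The hairpins of miR-222 and miR-423 fell as well. mir-222, from a cluster that drives proliferation by repressing the cell cycle inhibitor p27, measured 2365, 2615 and 3147 and 685, 1617 and 1014 CPM (log2 change -1.29, SE 0.35, edgeR adjusted p = 0.0489). Hairpin reads outnumbered those of mature miR-222-3p, which was not called (log2 change -0.19, SE 0.51, edgeR adjusted p = 0.855). The neighbour miR-221-3p lay at 1248, 1288 and 1086 and 752, 639.8 and 741 CPM without overlap and was not called either (log2 change -0.76, SE 0.25, edgeR adjusted p = 0.0964). mir-423 went from 1304, 1034 and 979.8 to 384, 578 and 541 CPM (log2 change -1.13, SE 0.31, edgeR adjusted p = 0.0489), while its mature arms had log2 changes of -0.41 and -0.58 and were not called.

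**Figure D3:**
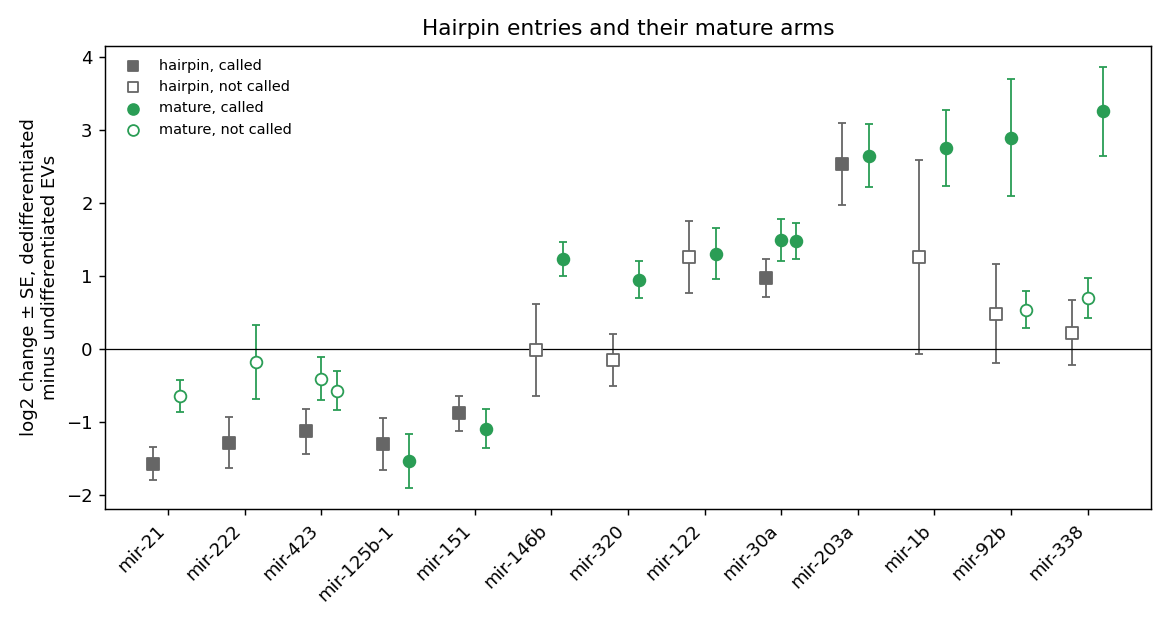
Points are log2 changes with their SE for 13 hairpin entries (squares) and the tested mature arms of each (circles), filled where called. Arms and hairpin were called together at mir-125b-1, mir-151, mir-30a and mir-203a, the hairpin alone at mir-21, mir-222 and mir-423, and mature entries alone at the other 6 loci.

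Hairpin and mature entries need not count separate molecules, since a read of a mature arm also matches its hairpin, and the way such reads were divided is not given in the sources used here. Over 135 tested hairpins with arms in the table, 64 had fewer counts than their arms, and the median hairpin held 110% of its arms' counts. miR-146b-5p and miR-320-3p rose while their hairpins mir-146b and mir-320 had log2 changes of -0.02 and -0.16. miR-320-3p, which is cut without the usual Drosha step, measured 7402, 9390.2 and 8975 CPM and then 17664, 18645 and 13426 CPM (log2 change 0.95, SE 0.25, edgeR adjusted p = 0.0489). Its call was lost in each of the 6 fits without a library, as were those of mir-30a, mir-125b-1, mir-423, miR-122-5p and miR-92b-5p.

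Arms of the same hairpin did not always move alike. In 24 pairs with both arms tested, 12 had log2 changes of the same sign, and the 5p to 3p ratio did not overlap between stages in 6 (miR-338, miR-22, miR-361, miR-760, miR-92b and miR-148a). miR-92b-5p had 0, 4 and 9 counts in undifferentiated and 9, 22 and 31 in dedifferentiated EVs (log2 change 2.89, SE 0.80, edgeR adjusted p = 0.0489). On the pooled counts this was a ratio of 6.99, with an exact interval of 3.80 to 13.9 at 95% that covers counting error only. Without undifferentiated replicate 3 the log2 change was 3.53, and the call was lost. Differentiated EVs, at 112 to 163 CPM, overlapped the dedifferentiated ones. The other arm, miR-92b-3p, of the miR-92 family that promotes proliferation, had a log2 change of 0.54 and was not called. The list drawn up for the miR-17-92 cluster and its paralogues also holds both arms of miR-92b. Its only call among 11 tested was miR-92b-5p, beside 6.21% of all tested mature entries called higher, and 9 had log2 changes below 0. miR-361-3p (-1.42, edgeR adjusted p = 0.0577) and miR-22-3p (0.99, edgeR adjusted p = 0.0834) had libraries that did not overlap and were not called.

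Of the 10 most abundant mature entries, miR-146b-5p alone was called. The entry with most counts was let-7c-5p, with 59673, 147760 and 206470 CPM in undifferentiated and 72378, 234830 and 173830 CPM in dedifferentiated EVs, and the shallow replicate 1 was the lowest in both stages (log2 change 0.22, SE 0.51, edgeR adjusted p = 0.82). let-7 miRNAs mark differentiated cells and repress growth genes. None of the 9 let-7 family members was called, and 8 had log2 changes above 0 with a median of 0.30, which became -0.03 with mature entries alone. let-7a-5p and miR-3596a, annotated on the opposite strand, held equal counts in all 9 libraries and cannot be told apart. Of 20 such opposite-strand pairs with at least 30 counts, 2 were equal throughout, the other being miR-125b-5p with miR-3588. The miR-23/27/24 clusters had no call among 8 tested, and their median of -0.03 turned to 0.04 with library size alone. All 4 tested miR-181 members had log2 changes above 0 without a call. Of the imprinted Dlk1-Dio3 cluster, 30 members were in the table and 1 was frequent enough to test, miR-127-3p (0.73, edgeR adjusted p = 0.668).

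Among miRNAs described in Schwann cells after nerve injury, 16 of 22 were tested, 3 rose and none fell, beside 6.21% of all tested mature entries called higher. The median log2 change was 0.41, against 0.22 over all tested entries, and with mature entries alone 0.11 against -0.10. The 3 that rose were miR-1b, miR-30c-5p and miR-146b-5p. With mature entries alone these stayed called, but miR-21-5p, miR-221-3p and miR-140-5p of the same list were then called lower. The list was assembled with results of these data known and is no independent evidence of direction. miR-140-5p, which is linked to the myelination factor Egr2, measured 335, 154 and 314 and 134, 65.7 and 82.4 CPM without overlap. In the fit of all entries it was not called (log2 change -1.52, SE 0.51, edgeR adjusted p = 0.101). miR-34a-5p, a p53 target that slows proliferation, had a log2 change of 1.55 (edgeR adjusted p = 0.32).

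**Figure D4:**
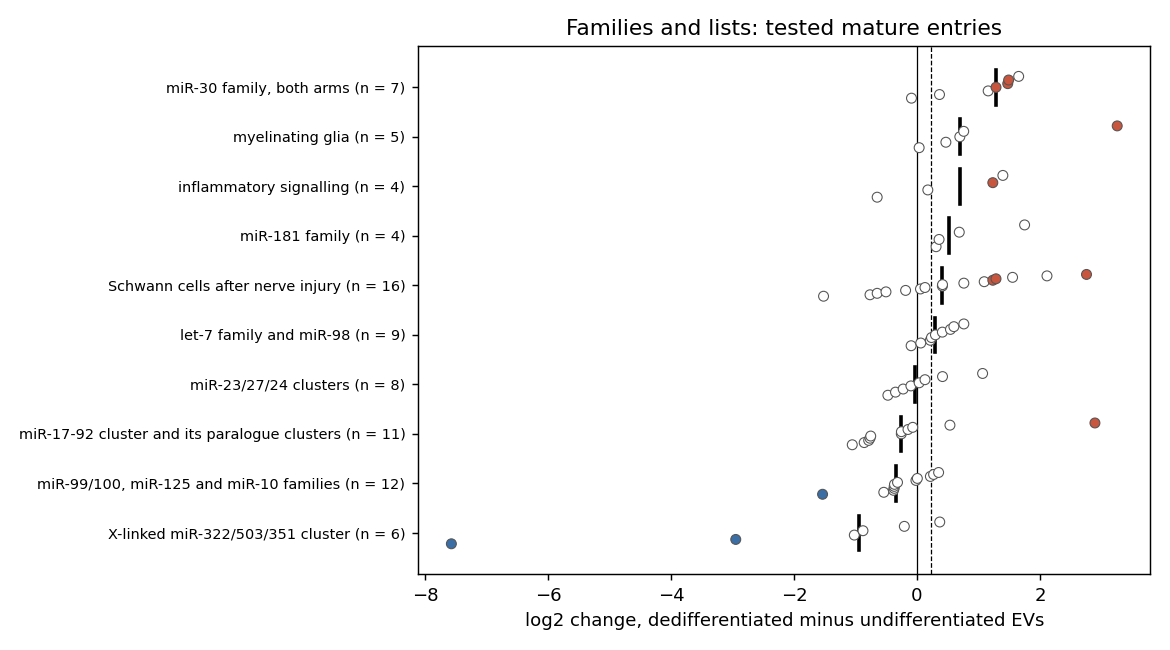
Each point is the log2 change of 1 tested mature entry, filled red where called higher and blue where called lower in dedifferentiated EVs; heavy bars are list medians and the dashed line is the median of all tested entries, 0.22. Among the 10 lists drawn, the miR-30 list has the highest median and that of the miR-322 and miR-503 cluster the lowest, where the leftmost point is miR-503-3p with no counts in dedifferentiated EVs.

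Summing mature counts over entries with the same seed put family members on 1 scale. Of 136 groups tested, 20 were called (14.7%), 10 higher (7.35%) and 10 lower (7.35%). Of these groups 123 were seed families, with 18 called, and 13 were single entries without a RefSeq match, of which miR-151-3p and miR-320-3p were called. A seed was held by several entries in 34 of the 123. This fit held mature counts alone, the setting under which log2 changes shifted by -0.31. The miR-30 seed GUAAACA rose over miR-30a-5p, miR-30c-5p, miR-30e-5p and miR-384-5p together (log2 change 1.09, SE 0.20, edgeR adjusted p = 0.00161). miR-30d-5p and miR-30b-5p had no RefSeq match and are not in this sum, and miR-30d-5p by itself was not called in this fit (log2 change 0.11, edgeR adjusted p = 0.775). The miR-1 and miR-206 seed GGAAUGU rose (log2 change 2.37, SE 0.39, edgeR adjusted p = 0.00143), as did the miR-146 seed GAGAACU (log2 change 0.98, SE 0.19, edgeR adjusted p = 0.00213). The miR-221 and miR-222 seed GCUACAU fell (log2 change -0.92, SE 0.25, edgeR adjusted p = 0.0235). Of its members miR-221-3p was also called by itself with mature entries alone, though not in the fit of all entries. miR-21-5p, the only tested entry of its seed, fell in this fit (log2 change -0.88, SE 0.20, edgeR adjusted p = 0.00639). miR-351-5p shares its seed CCCUGAG with miR-125a-5p and miR-125b-5p, and the sum of the 3 was not called (log2 change 0.02, SE 0.18, edgeR adjusted p = 0.95). The summed let-7 seed was not called (log2 change -0.11, SE 0.36, edgeR adjusted p = 0.853).

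miRNAs known mainly from other tissues were among the entries that rose. miR-203a-3p, a keratinocyte miRNA that limits stemness in skin, measured 344, 197 and 320.0 CPM in undifferentiated and 2656, 1380.3 and 1323 CPM in dedifferentiated EVs. Replicate 1 was the highest of the dedifferentiated libraries, and all 3 were above the undifferentiated ones (log2 change 2.64, SE 0.43, edgeR adjusted p = 0.00854). miR-203b-5p, from the opposite strand, followed it at 298, 139 and 264 and 2230, 872 and 1107 CPM (log2 change 2.60, SE 0.52, edgeR adjusted p = 0.0125). The hairpins mir-203a and mir-203b had counts within 2 reads of each other in each library and rose alike (log2 changes 2.53 and 2.54, edgeR adjusted p = 0.0199). Without dedifferentiated replicate 1 both had a log2 change of 1.76, miR-203b-5p one of 1.96, and all 3 lost their call. These 4 entries may count the same reads. The hairpin mir-200c, of the miR-200 family that keeps cells epithelial by repressing Zeb1, had 1, 0 and 1 counts in undifferentiated and 51, 16 and 18 in dedifferentiated EVs. The ratio was 62.3, with an exact interval of 16.7 to 522 at 95% for counting error (edgeR adjusted p = 0.0211). mir-3575, on the opposite strand, had 1, 1 and 2 and 51, 31 and 19 counts (log2 change 5.23, SE 1.06, edgeR adjusted p = 0.0125). Replicate 1 gave 426 CPM of mir-200c, and without it neither hairpin was called, at log2 changes of 4.47 and 4.18. Without undifferentiated replicate 2 the log2 change of mir-200c was 5.03. Mature miR-200c-3p was too rare to test.

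miR-1b, which carries the seed of muscle miR-1, rose from 121, 209 and 152 to 1244, 1148 and 911 CPM, with narrow dedifferentiated values well above the rest (log2 change 2.76, SE 0.52, edgeR adjusted p = 0.0119). The entry named miR-1-3p, almost the same in sequence as miR-1b, held 5 counts over the 6 libraries. miR-206-3p had a log2 change of 2.11 with replicates far apart (543, 61.3 and 263 CPM in dedifferentiated EVs) and was not called. miR-122-5p, made in hepatocytes and abundant in serum, measured 1089, 843 and 786 CPM and then 2673, 1875 and 2152 CPM (log2 change 1.30, SE 0.35, edgeR adjusted p = 0.0489). Also not called were miR-205 (3.96, edgeR adjusted p = 0.1), the hairpins mir-200b (3.01, edgeR adjusted p = 0.0723) and mir-223 (3.38, edgeR adjusted p = 0.0659), and miR-183-5p (3.57, edgeR adjusted p = 0.0834).

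Lists of miRNAs that mark other sources are described by their summed levels, without a test of a list. Over all tested mature entries, 6.21% were called higher and 2.82% lower. The 13 epithelial entries summed to 680.2 to 1145 CPM in undifferentiated and 2848 to 5546 CPM in dedifferentiated EVs, none was at 0 in all 6 libraries, and 2 of 5 tested rose. Both were entries of the miR-203 locus, which may count the same reads, and without that locus the sums overlapped, at 269.5 to 493 and 458 to 659.8 CPM, with no call among 3 tested. The single liver and serum entry was miR-122-5p. The 8 blood cell entries summed to 5.61 to 84.7 and 232 to 267 CPM, with 2 at 0 in all 6 libraries and 1 tested but not called. The 6 muscle entries summed to 333 to 587 and 834 to 1345 CPM, with 3 tested and none called. That list holds miR-1-3p but not miR-1b, which was called higher. The 2 fibroblast entries came to 399 to 456 and 600.3 to 1009 CPM, also without a call. Neuronal entries, mostly miR-128-3p, summed to 8910.5 to 9511 and 5876 to 6543 CPM, with miR-128-3p the 1 of 3 tested that was called. The endothelial entry overlapped and was not called. Leaving out the epithelial, blood and serum entries and some of their hairpins, an alternative chosen after the data were seen, gave 22 calls, 7 higher and 15 lower. Those left out include miR-122-5p, mir-200c, mir-3575 and the miR-203 entries, all called higher, and no entry called lower. Fewer higher calls thus follow in part from the choice.

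**Figure D5:**
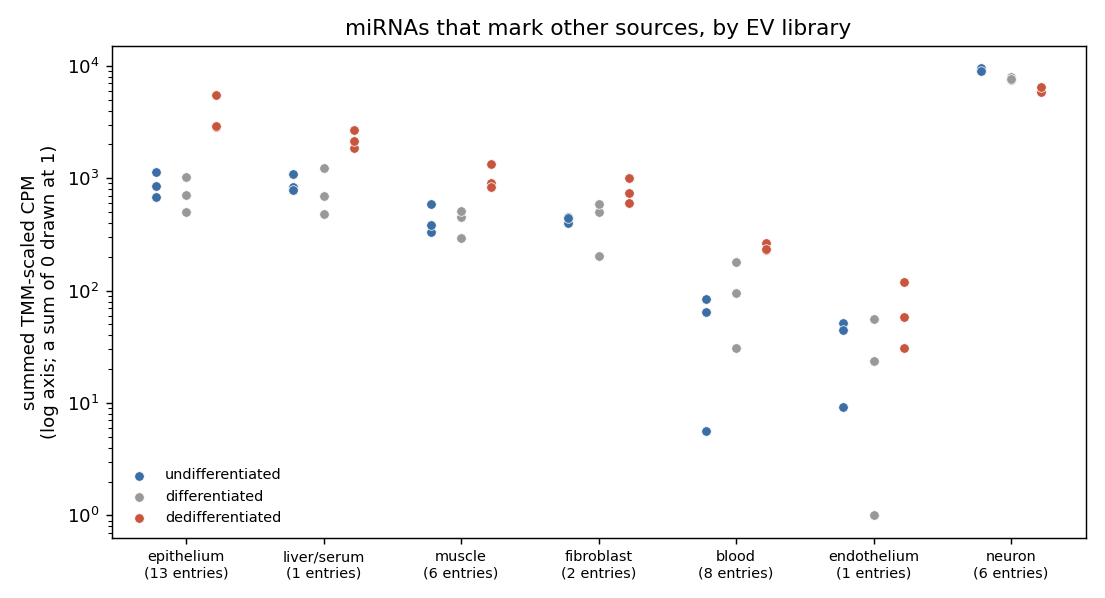
Points are EV libraries, and the vertical axis is the summed CPM (log scale) of the miRNAs listed as markers of each source. The epithelial, liver and serum, muscle, fibroblast and blood sums of the dedifferentiated libraries lie above all undifferentiated ones, the neuronal sum lies below, and the endothelial one overlaps; the epithelial gap comes from entries of the miR-203 locus.

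Cell mRNA of the same stages was checked for genes of those cell types. Sox10, a transcription factor that defines Schwann cells, was high in both, at 1249 to 1559.5 and 1324 to 1534 CPM. Ngfr, the p75 neurotrophin receptor of immature and repair Schwann cells, was at 3810 to 5571.5 CPM in undifferentiated, 1026 to 1254 CPM in differentiated and 3569 to 3754 CPM in dedifferentiated cells. S100b, a calcium-binding protein of Schwann cells, did not return to its first level, at 386 to 441, 680.1 to 878 and 976 to 1145 CPM in the same order. Of epithelial genes, Krt5 was at 0 in all 6 libraries, and Krt14, Krt8 and Epcam stayed at or under 0.737 CPM. Cdh1, E-cadherin, which myelinating Schwann cells also make, was at 0.17 to 0.79 CPM in undifferentiated and 88.5 to 167 CPM in dedifferentiated cells. The 5 macrophage genes summed to 0.34 to 1.63 CPM in undifferentiated and 1.84 to 3.64 CPM in dedifferentiated cells. Of 2 tested, Csf1r, a growth factor receptor of macrophages, rose from 0 in every library to 0.516 to 0.932 CPM (edgeR adjusted p = 0.0062), Cd68 was not called, and Aif1 was at 0 in all 6. The 4 endothelial genes summed to 1.27 to 3.16 and 3.96 to 7.88 CPM. Most of it was Tek, an angiopoietin receptor and the 1 gene of them tested, which rose from 0.679 to 2.27 to 3.27 to 7.29 CPM (log2 change 2.06, edgeR adjusted p = 0.00588), while Cdh5 was at 0 in all 6. The 4 muscle genes summed to 5.42 to 10.7 and 7.88 to 13.6 CPM, mostly Acta2 and Myh11, the 2 tested, neither of which was called. The 6 fibroblast genes summed to 24920 to 30626 and 15878 to 19346 CPM, and Col1a1 and Col1a2, collagen genes that cultured Schwann cells can make, both fell, while Lum was at 0 in all 6. The 4 neuronal genes were mostly Tubb3, which was not called, with Rbfox3 at 0 throughout. The part of the medium and its serum in the EV miRNA differences was not tested.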

How the data were processed

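The members and lists were chosen with earlier results of these data known. EV miRNA values are raw counts per entry as deposited by the authors, and cell mRNA values are estimated counts from Salmon as deposited, rounded to whole numbers before testing (1.15% were fractional). The submitters' processing notes also name cutadapt, STAR, HISAT2 and DESeq2 1.26.0 without saying which table each made. The genome build and the counting of reads shared by hairpin and mature entries are not given in the sources used here, so no coordinates are printed. Columns were matched to samples by library code and stage.

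The quasi-likelihood test of edgeR 4.0.16 (R 4.3.3) was run without covariates over all 9 libraries of an assay. The filter was filterByExpr (minimum count 10), library size was the total over all rows, and TMM scaled composition. Calls used a Benjamini-Hochberg adjusted p under 0.05 over all 361 entries (10372 genes for mRNA). Ratios of pooled counts carry exact 95% intervals for counting error. Alternatives included DESeq2 1.42.0. The scripts were tested on simulated data. Named were all called entries, their arms, hairpins and hosts, the 10 most abundant mature entries and list members. In cell mRNA, replicate 3 came from another sequencing project.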

Additional observations from a re-analysis of the deposited data

How the results depend on the processing

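Main counts were 27 entries, 16 mature and 11 hairpin, 20 seed groups (seed families and 13 single entries without a seed) and 1 host gene. DESeq2's Wald test gave 60, 30 and 30, with 3 host genes. Library size without a composition factor gave 15, 10 and 5, with 12 seed families. Without a filter beyond a count above 0, 41 entries were called, 23 of them hairpins. Upper quartile scaling called 7 hairpins, and hairpin entries alone gave 5 calls. Without replicate 1 of both stages, chosen after the data were seen, 12 entries were called, 9 mature and 3 hairpins. Leaving out 1 library gave 1 to 23 entries, 0 to 12 mature, 1 to 12 hairpin, 15 to 22 seed families and 1 to 3 host genes. The 0 arose without undifferentiated replicate 2 or 3, where edgeR gave 27 and 33 mature entries an unadjusted p under 0.05. The sequencing project as a covariate gave 2 host genes.

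With the replicate number as a block, 51 entries were called, 25 mature and 26 hairpin, with 31 seed families and 2 host genes. Deviations of same-numbered EV libraries correlated by 0.215, -0.083 and 0.106, and those of differently numbered ones by -0.279 to 0.219. So few values cannot show whether the numbers pair the libraries. Of 743 values of single entries under the alternatives, 0 reversed, 163 lost a call and 33 gained one. Replicate 1 of the undifferentiated and of the dedifferentiated stage had the fewest counts of its stage, which limits low entries most.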

Other observations

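miR-151-5p, chosen after its values were seen, had 205 counts (898 CPM) in dedifferentiated replicate 2 and 0 in the other 2 dedifferentiated libraries, against 0, 0 and 1 count in undifferentiated EVs. miR-3586-3p, of the hairpin annotated at the same locus, had 244 counts in that library and 0 and 4 in the other 2. The arm miR-151-3p was not high there, at 2238, 3300 and 3511 CPM in replicates 1 to 3. Neither of the first pair was called, and miR-151-5p was too rare to test. In differentiated EVs miR-151-5p had 0, 15 and 6 counts.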
